A study of Mus musculus with 6 samples.

Results

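MAP kinase phosphatases are dual-specificity enzymes that switch MAP kinases off by removing phosphate from both the threonine and the tyrosine of the activation loop. Each enzyme docks onto particular kinases, and many of the genes are themselves switched on by the pathway they restrain, which makes them feedback brakes. In fibroblasts they set how long ERK, JNK and p38 stay active after growth factors or stress. The family measured here was Dusp1, Dusp2, Dusp4, Dusp5, Dusp6, Dusp7, Dusp8, Dusp9, Dusp10 and Dusp16, which are 10 of the 34797 gene names on the arrays and were read by 13 of the 55681 probes, chosen by gene name after Dusp9 had been seen to fall in TIAR KO MEF.

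RNA of immortalized murine embryonic fibroblasts (MEF) was hybridized to 6 one-colour mouse arrays, 2 for each of 3 genotypes, and the study described both arrays of a genotype as independent experiments. WT MEF were of strain W4, TIA1 KO MEF of BALB/c and TIAR KO MEF of C57BL/6. TIA1 and TIAR are related RNA-binding proteins that act on splicing, translation and mRNA decay, and the comparisons ask which transcripts change when either is lost. Genotype, strain and cell line came together and cannot be told apart, and whether each genotype was 1 clone was not stated in the sources used here.

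All 6 arrays were on 1 slide with 1 scan time. The WT and TIAR KO arrays filled the first row of the slide and the TIA1 KO arrays lay in the second, so genotype and row cannot be told apart for TIA1 KO MEF. The TIA1 KO arrays also differed in signal. Their scanner software rated 16021 and 19996 probes well above background, against 23569 and 26295 in WT and 24796 and 26011 in TIAR KO, and their median spot intensities before normalization were 458 and 218, against 152 and 140 in WT and 136 and 119 in TIAR KO. The part of these differences in the results of TIA1 KO MEF was not tested. Values below are normalized log2 intensities, on which a difference of 1 is a fold change of 2. They compare 1 probe between samples and not probes with one another, and fewer cells with a transcript and less of it per cell cannot be told apart in such RNA.

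The genes that had been knocked out were read first. The brightest Tia1 probe measured 10.72 and 8.54 in WT, 7.87 and 8.44 in TIA1 KO and 9.56 and 9.58 in TIAR KO MEF, a difference of −1.47 ± 0.79 (SE) between TIA1 KO and WT (adjusted p = 0.288, limma). Both TIA1 KO arrays were lower than both WT arrays, but the WT arrays lay far apart. The brightest Tial1 probe, of the gene of TIAR, measured 13.22 on the only WT array with an accepted spot, 14.07 and 13.69 in TIA1 KO and 9.57 and 11.60 in TIAR KO MEF, which puts the TIAR KO arrays lowest. Tial1 in TIAR KO MEF was at −2.63 against the 1 WT array and at −3.29 ± 0.72 against TIA1 KO (adjusted p = 0.110, limma). The Tial1 probe stayed well above background on both TIAR KO arrays. Where these probes lie with respect to the deleted parts was not analysed here. Gapdh, a glycolytic enzyme used as a reference, measured between 18.47 and 18.74 on every array, and its difference between TIA1 KO and WT went from −0.04 to −1.41 with arrays scaled to a common median.

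Fibroblast markers were also checked. Of 12 such genes, 7 were well above background on both WT arrays, 8 on both TIA1 KO arrays and 10 on both TIAR KO arrays, and Lum and Fap were at background on all 6. The log2 of their summed intensity was 19.03 and 19.11 in WT, 20.33 and 20.30 in TIA1 KO and 20.41 and 20.44 in TIAR KO MEF, and 7 of the 12 rose in TIA1 KO MEF against WT, where 2.88% of gene names did, while 8 of the 12 rose in TIAR KO MEF, where 4.36% did. The macrophage transcripts Ptprc, Emr1 and Lyz2 and the endothelial transcripts Cdh5 and Tie1 were at background throughout, as were Myod1, Myog and Myh11 of muscle. Other transcripts of the macrophage and endothelial lists (Cd14, Cd68, Itgam and Kdr) were well above background on all 6 arrays. Csf1r was so on all but TIA1 KO replicate 1, Pecam1 on the WT and TIAR KO arrays, and Tek only on TIAR KO replicate 2. Des of the muscle list was so on WT replicate 2 and on both TIAR KO arrays. Against WT, Itgam rose in TIA1 KO MEF by 1.82 ± 0.24 (adjusted p = 0.0415, limma) and Cd14 fell in TIAR KO MEF, at −1.32 ± 0.18 (adjusted p = 0.0136, limma). Cd68 went the other way in TIAR KO MEF, at 1.13 against WT, and was not called. The contractile transcripts Acta2 and Tagln raised the summed log2 intensity of 6 muscle markers from 13.89 and 14.26 in WT to 18.02 and 18.17 in TIA1 KO and to 18.84 and 18.66 in TIAR KO MEF. Of 6 epithelial markers, the keratins Krt8 and Krt19 rose in TIA1 KO MEF, and Krt8, Krt18 and the cadherin Cdh1 rose in TIAR KO MEF, with Krt18 at 7.29 and 7.30 in WT, 6.80 and 7.79 in TIA1 KO and 10.08 and 9.95 in TIAR KO MEF. The cell lines compared thus also differed in fibroblast, contractile, epithelial and macrophage markers, and the part of these in the results below was not tested.

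The probes that the results turn on are shown by their first 30 bases as spotted, and a second Dusp7 probe by the 30 bases from its base 14, in which capitals mark each base that equals the base 2 positions before or after it.
Dusp9: cactgagactctttgtgactgagggtggtc
Dusp1: gcgtatgagagtttttacctttatttattt
Dusp4: aataacggcggtttccgctgccagagaaga
Dusp7, brighter probe: cacacatatatatcccgagccagcaacggg
Dusp7, dimmer probe: AtAcATATATATATATAgACACACACACAC
The dimmer Dusp7 probe is low in complexity, with 27 of those 30 bases in capitals. The scanner software placed the probes on mm9, Dusp9 at chromosome X, 70888467 to 70888526, Dusp4 at chromosome 8, 35882045 to 35882104, and Dusp1 at chromosome 17, where only 26642526 to 26642536 was given for its 60 bases. The brighter Dusp7 probe was placed at chromosome 9, 106277985 to 106278044, and the dimmer one at 106277943 to 106278000, a span shorter than its 60 bases. These positions overlap by 16 bases, and the longest run of sequence that the pair shares is 15 bases. No annotation of this build was used here, and whether a probe lies in a coding or an untranslated exon was not analysed here.

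Dusp9, a cytoplasmic phosphatase selective for ERK, had the lowest values of the family in TIAR KO MEF relative to its own values in WT. It measured 11.45 and 11.82 in WT, 10.63 and 10.28 in TIA1 KO and 6.69 and 6.66 in TIAR KO MEF. The 3 genotypes did not overlap, with WT highest and TIAR KO lowest, and the Dusp9 probe was not well above background on either TIAR KO array. The measured difference between TIAR KO and WT was −4.96 ± 0.18 (SE, n = 2 arrays each). With TIAR KO replicate 2 raised to the lowest value that its array had well above background, Dusp9 was 25.8-fold lower. Replicate 1 already lay above that value of its own array and was kept, so this fold is not a strict lower limit. Between TIAR KO and TIA1 KO the measured difference was −3.79 ± 0.19, or 11.4-fold lower in TIAR KO with that replacement. It was −2.84 with arrays scaled to a common median. Between TIA1 KO and WT it was −1.18 ± 0.23, a fold of 2.26, and −2.39 with that scaling. The choice of the family rested on this gene, so none of its differences was tested. In the log2 table that the authors deposited, from which Dusp9 had been chosen, the probe was at 11.49 and 11.78 in WT, 10.93 and 10.47 in TIA1 KO and 6.84 and 6.65 in TIAR KO MEF.

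**Figure D1:**
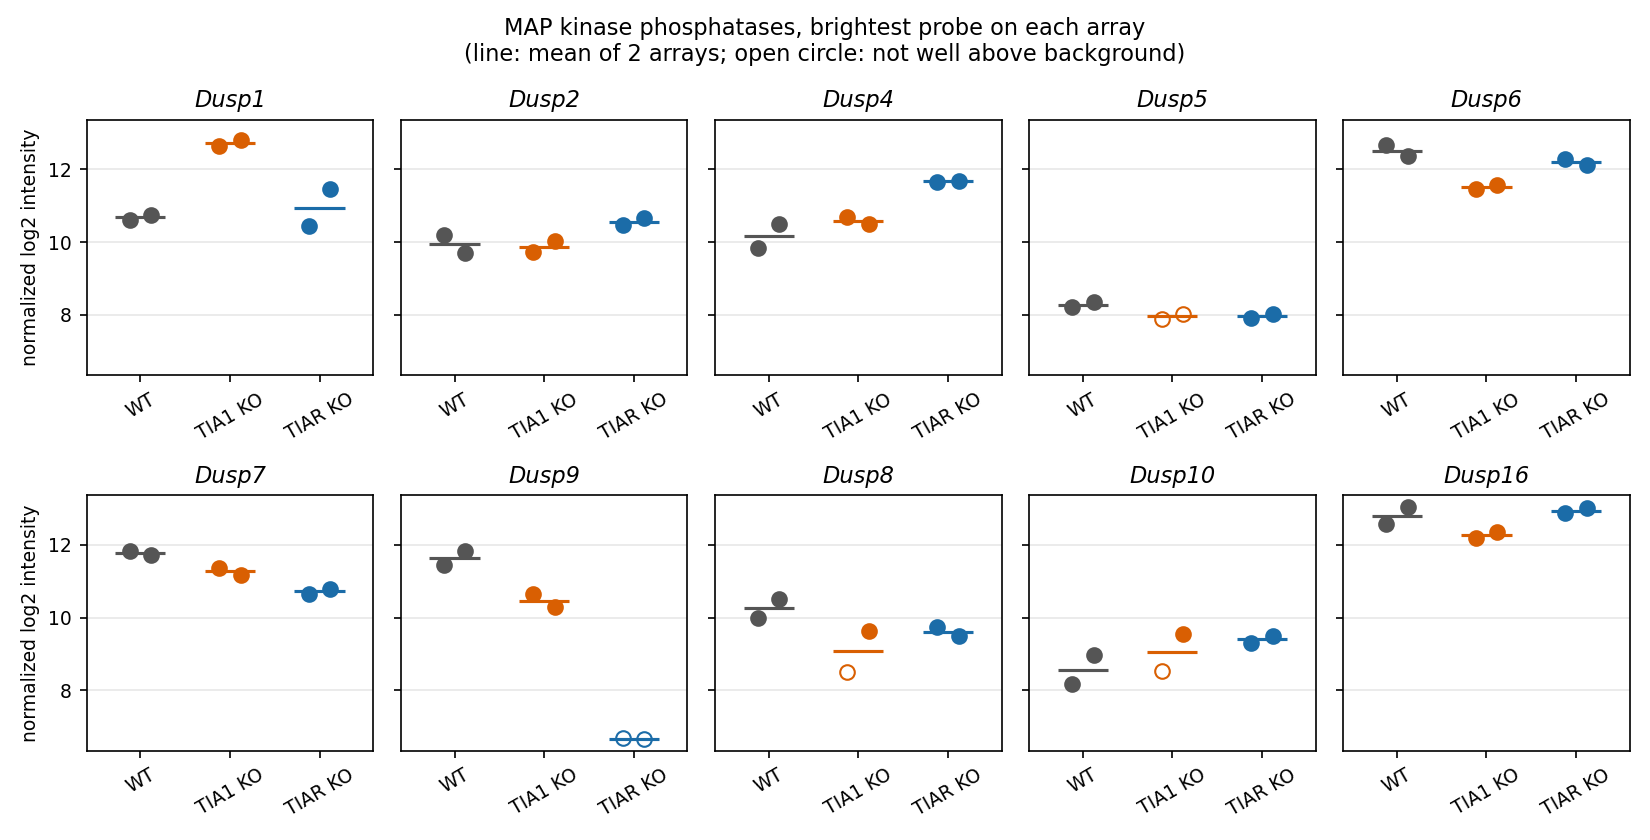
Normalized log2 intensity of the brightest probe of each MAP kinase phosphatase on each of the 6 arrays, with 2 arrays per genotype, lines at the means and open circles where the probe was not well above background. Dusp9 was highest in WT, lower in TIA1 KO and at background in TIAR KO MEF, whereas Dusp1 was high in TIA1 KO MEF and Dusp4 in TIAR KO MEF.

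Dusp6 and Dusp7 are the other cytoplasmic phosphatases of ERK. Dusp6, a feedback inhibitor whose own transcription follows ERK activity, measured 12.67 and 12.36 in WT, 11.45 and 11.57 in TIA1 KO and 12.29 and 12.12 in TIAR KO MEF. TIA1 KO arrays were below all others, and the TIAR KO arrays just below WT. Dusp6 was 2.01-fold lower in TIA1 KO than in WT MEF (SE of 0.19 on the log2 scale), which did not pass (adjusted p = 0.0778, limma). It was called among probes well above background (adjusted p = 0.0476, limma), with all 3 genotypes in 1 fit (0.0298) and with the spread depending on intensity (0.0438). With arrays scaled to a common median it was −2.56 (adjusted p = 5.08e-06, limma). With the replicate number as a block it was not called (adjusted p = 0.138, limma). With 1 array left out it lay between −1.16 and −0.85. The difference between TIAR KO and TIA1 KO was 0.70 ± 0.17 (adjusted p = 0.123, limma). Dusp6 in TIAR KO MEF was at −0.31 ± 0.18 against WT.

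Dusp7 had the opposite order in the knockouts. Its brighter probe measured 11.83 and 11.71 in WT, 11.37 and 11.16 in TIA1 KO and 10.64 and 10.80 in TIAR KO MEF, in 3 groups that did not overlap. The differences were −1.05 ± 0.15 for TIAR KO against WT, −0.50 ± 0.17 for TIA1 KO against WT (adjusted p = 0.159, limma) and −0.55 ± 0.17 for TIAR KO against TIA1 KO (adjusted p = 0.180, limma). With arrays scaled to a common median they were −1.43, −1.99 and 0.56 in the same order. The dimmer, repeat-rich probe measured 10.43 and 10.83, 10.42 and 10.82, and 10.35 and 10.44 in WT, TIA1 KO and TIAR KO MEF. On it WT overlapped with both knockouts, and its difference between TIAR KO and WT was −0.23 ± 0.19.

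The nuclear phosphatases Dusp1, Dusp2, Dusp4 and Dusp5 are encoded by genes that are switched on rapidly by mitogens and stress. Dusp1 inactivates p38 and JNK as well as ERK, and its mRNA carries AU-rich elements. It measured 10.62 and 10.74 in WT, 12.63 and 12.80 in TIA1 KO and 10.44 and 11.45 in TIAR KO MEF. Both TIA1 KO arrays were above every other array, and the TIAR KO arrays, which lay on either side of WT, were the most unequal pair. Dusp1 was up-regulated in TIA1 KO MEF by 2.04 ± 0.16, a fold of 4.11 (adjusted p = 0.0163, limma). It was not called without WT replicate 1 (1.98) or without WT replicate 2 (2.10), and scaling the arrays to a common median left a difference of 0.58. With that scaling the median over all probes in this comparison went from −0.09 to −0.67. Between TIAR KO and TIA1 KO the difference was −1.77 ± 0.38 and did not pass (adjusted p = 0.106, limma). It was −0.69 with arrays scaled to a common median and between −2.28 and −1.27 with 1 array left out. Between TIAR KO and WT the difference was 0.27 ± 0.34.

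Dusp4, which acts on ERK and JNK in the nucleus, was highest in TIAR KO MEF. It measured 9.84 and 10.49 in WT, 10.68 and 10.51 in TIA1 KO and 11.65 and 11.68 in TIAR KO MEF. The TIAR KO arrays stood clear of all others, while the higher WT array lay just below the lower TIA1 KO array. The differences were 1.50 ± 0.24, a fold of 2.84, for TIAR KO against WT, 1.08 ± 0.16 for TIAR KO against TIA1 KO (adjusted p = 0.0537, limma) and 0.43 ± 0.27 for TIA1 KO against WT (adjusted p = 0.350, limma). With arrays scaled to a common median they were 1.16, 2.11 and −0.96 in the same order. Between the knockouts Dusp4 was called with that scaling, among probes well above background and with the spread depending on intensity.

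Dusp2, a nuclear phosphatase best known from activated immune cells, measured 10.20 and 9.70 in WT, 9.72 and 10.04 in TIA1 KO and 10.46 and 10.67 in TIAR KO MEF. WT and TIA1 KO overlapped and TIAR KO was above both, by 0.62 ± 0.22 over WT and by 0.69 ± 0.20 over TIA1 KO (adjusted p = 0.162, limma). Dusp5, a nuclear phosphatase of ERK, was close to background, at 8.20 and 8.35 in WT, 7.88 and 8.04 in TIA1 KO and 7.92 and 8.02 in TIAR KO MEF. Both knockouts lay slightly below WT, and the Dusp5 probe was not well above background on either TIA1 KO array. The measured difference between TIA1 KO and WT was −0.32 ± 0.16 (adjusted p = 0.274, limma). Dusp5 was 1.18-fold lower with TIA1 KO replicate 1 raised to the lowest value its array had well above background. Replicate 2 kept its own value, so this is not a strict lower limit. The difference was 0.53 with the processed signal of the scanner software. Dusp5 was at 0.01 ± 0.16 between TIAR KO and TIA1 KO MEF (adjusted p = 0.963, limma). With the TIA1 KO values near background, this is not read as an absence of difference.

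Dusp8, Dusp10 and Dusp16 prefer JNK and p38 over ERK. Dusp8 was read by probes on chromosome 7 that do not overlap. The brighter measured 9.99 and 10.52 in WT, 8.51 and 9.64 in TIA1 KO and 9.74 and 9.48 in TIAR KO MEF, and the dimmer 9.52 and 9.22, 7.54 and 8.32, and 8.40 and 8.84. Both probes were lower in both knockouts than in WT with no overlap, and TIA1 KO replicate 1 was not well above background on either. TIA1 KO minus WT was −1.18 ± 0.45 on the brighter probe (adjusted p = 0.188, limma) and −1.44 ± 0.32 on the dimmer (adjusted p = 0.0970, limma). On the brighter probe it was −0.62 without TIA1 KO replicate 1 and −1.75 without replicate 2. TIAR KO minus WT was −0.64 ± 0.23 and −0.75 ± 0.21.

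Dusp16 was bright on 1 probe and dim on the other, both on chromosome 6. The brighter measured 12.56 and 13.05 in WT, 12.17 and 12.35 in TIA1 KO and 12.88 and 13.00 in TIAR KO MEF, and the dimmer 8.26 and 8.12, 6.96 and 7.25, and 7.85 and 7.99. TIA1 KO was the lowest group on both, at −0.54 ± 0.23 against WT on the brighter probe (adjusted p = 0.219, limma), with −0.78 without WT replicate 1, −0.29 without WT replicate 2 and −2.12 with arrays scaled to a common median. The dimmer probe was not well above background on either TIA1 KO array and was at −1.09 ± 0.18 there against WT (adjusted p = 0.0659, limma). It was 1.47-fold lower with TIA1 KO replicate 1 raised to the lowest value its array had well above background. Replicate 2 kept its own value, so this is not a strict lower limit. The probes differed in TIAR KO MEF, where the brighter overlapped WT at 0.14 ± 0.21 and the dimmer was below it at −0.27 ± 0.15. Dusp10, induced by stress and inflammatory signals, measured 8.18 and 8.96 in WT, 8.53 and 9.55 in TIA1 KO and 9.31 and 9.50 in TIAR KO MEF. The TIAR KO arrays were above both WT arrays, by 0.84 ± 0.28, whereas the TIA1 KO arrays were too far apart to separate from either group, at 0.47 ± 0.47 against WT (adjusted p = 0.522, limma) and −0.15 with arrays scaled to a common median.

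**Figure D2:**
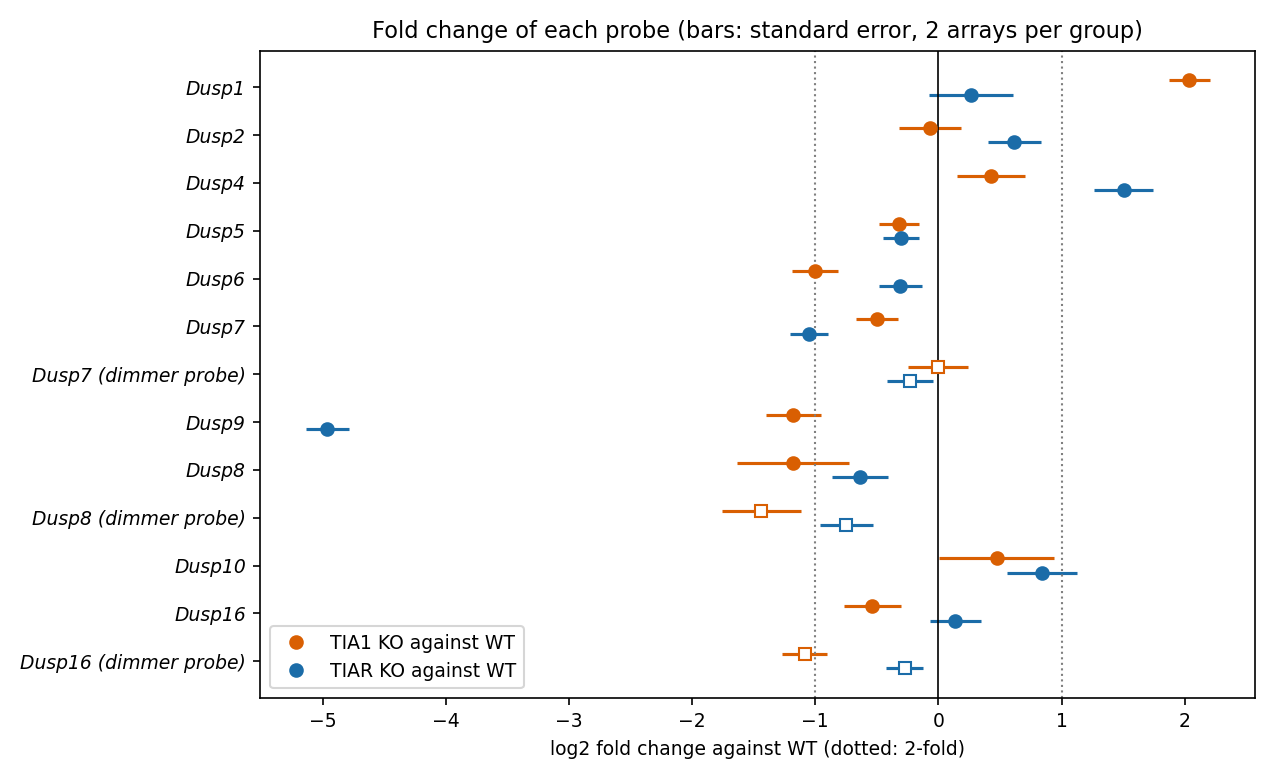
Log2 fold change against WT with its standard error for all 13 probes, in TIA1 KO and TIAR KO MEF with 2 arrays per genotype, squares for the dimmer probe of a gene and dotted lines at a fold of 2. Dusp1 stands at 2.04 in TIA1 KO MEF and Dusp9 at −4.96 in TIAR KO MEF, where it was measured near background. Also outside the dotted lines are Dusp6, Dusp9, both Dusp8 probes and the dimmer Dusp16 probe in TIA1 KO MEF and Dusp4 and the brighter Dusp7 probe in TIAR KO MEF.

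Taking the family as a group, 1 of the 9 genes tested (Dusp1) was called in TIA1 KO MEF against WT at a fold change above 2 and an adjusted p under 0.05, where 3.54% of all probes were called and 4.51% of the gene names by their brightest probe. At an unadjusted p under 0.05, 3 of the 9 passed, beside 27.8% of all probes. With arrays scaled to a common median, 0 were called higher and 5 (Dusp2, Dusp6, Dusp7, Dusp8 and Dusp16) lower, but so were 3.37% and 25% of all probes, and nothing about the family is read from it. The count was 0 without either WT array, where no probe at all was called, and 3 (Dusp1, Dusp6 and Dusp8) without TIA1 KO replicate 2, where 19.3% of all probes were. With Dusp9 included, both TIA1 KO arrays were higher than both WT arrays for 2 genes and lower for 6, and they overlapped for 2. Over all probes those shares were 26% higher and 39.2% lower. The median of the 10 genes was −0.41, beside −0.09 over all probes.

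In TIAR KO MEF against WT, 1 gene (Dusp4) was higher and 2 (Dusp7 and Dusp9) were lower by a fold above 2, which 4.08% and 3.58% of all probes were. Both TIAR KO arrays were higher than WT for 3 genes and lower for 5, beside 21.9% and 27% of all probes, and the median of the 10 genes was −0.08, or 0.14 without Dusp9, beside −0.02 over all probes. The choice of the family rested on this comparison, and nothing is read from these counts.

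Between TIAR KO and TIA1 KO MEF, 0 of the 9 genes tested were called by limma, where 3.35% of all probes were, and 6 of the 9 had an unadjusted p under 0.05, beside 22.6%. The count was 1 without TIA1 KO replicate 1 (Dusp4) or replicate 2 (Dusp8), where 6.15% and 18.1% of all probes were called, 2 (Dusp1 and Dusp4) where limma let the spread depend on intensity, which called 3.86%, 1 (Dusp1) with all 3 genotypes in 1 fit, which called 5.72%, and 4, all higher (Dusp2, Dusp4, Dusp6 and Dusp16), with arrays scaled to a common median. With that scaling 13% of all probes were called higher and 1.91% lower. TIAR KO arrays were higher for 4 of the 10 genes and lower for 3, beside 34.9% and 25% of all probes. Without Dusp9, on which the choice of the family rested, they were higher for 4 and lower for 2. Both comparisons with WT share the WT arrays, and each knockout enters a pair of comparisons, so the sides of a gene are not independent of one another.

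The promoter of Dusp1, the family member called in TIA1 KO MEF, is shown for the 250 bases before its start, from RefSeq on GRCm38.p6 at chr17:26508473-26508722, minus strand. Capitals mark a cyclic AMP response element (TGACGTCA) and an E-box (CACGTG).
Dusp1 promoter: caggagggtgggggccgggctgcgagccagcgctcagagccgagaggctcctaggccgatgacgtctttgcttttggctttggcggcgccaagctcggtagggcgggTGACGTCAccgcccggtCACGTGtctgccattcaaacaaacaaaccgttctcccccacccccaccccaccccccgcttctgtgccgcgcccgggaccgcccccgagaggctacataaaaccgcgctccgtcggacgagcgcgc
Both strands of such windows were searched for 8 of the 10 genes, those other than Dusp4 and Dusp9. TGACGTCA was found in Dusp1 and, at 2 places, in Dusp8, and in 1.55% of 32851 promoters. CACGTG was found in Dusp1 and Dusp2 and in 6.02% of all promoters, and the AP-1 motif TGANTCA in none of the 8 and in 6.75%. The CCAAT box was found in Dusp6, Dusp7, Dusp8, Dusp10 and Dusp16 and in 33.8% of all promoters, and GGGCGG, which Sp1 binds, in all of the 8 except Dusp6 and Dusp7 and in 32.7%.

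The rest of the pathway was read from 97 genes in 8 lists (MAP kinases and the kinases above them, scaffolds, other phosphatases, feedback inhibitors and ERK-responsive transcripts), all of which were measured. The lists were chosen with earlier results of these data known, so their counts and p-values are a description. In TIA1 KO MEF against WT, 3 were up-regulated and 3 down-regulated, or 6.19% of the 97, beside 2.88% of gene names up-regulated and 1.63% down-regulated. This count depended on the scaling, with 4 higher and 54 lower at a common median, where 25% of all probes were lower. Fits that left 1 array out took the spread from the other genotype alone. Their counts cannot show whether the call of a gene rested on single arrays. In TIAR KO MEF against WT, 8 were up-regulated and 11 down-regulated, or 19.6%, beside 5.76% of all probes and 7.18% of gene names (4.36% up-regulated and 2.82% down-regulated), and 12 of the 97 were called without WT replicate 2 or without TIAR KO replicate 2, where 5.03% and 4.15% of all probes were. Among probes well above background, larger shares were called. There 20 pathway genes were called in TIAR KO MEF against WT, beside 13.2% of such probes, and 11 in TIA1 KO MEF, beside 12.6%. Between the knockouts, 3 of the 97 were higher and 4 lower in TIAR KO MEF, or 7.22%, beside 4.18% of gene names (2.06% higher and 2.12% lower). They were Map3k9, Dusp23 and Ppm1b, and Mapk6, Fosl2, Egr1 and Dusp13. All of these calls were lost with the replicate number as a block, where no probe at all was called between the knockouts.

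Transcripts that ERK signalling induces are the targets on which the ERK phosphatases bear. Of 18 such genes, 6 fell and 0 rose in TIAR KO MEF by limma, beside 2.82% of gene names that fell and 4.36% that rose, and the median was −0.71. Among probes well above background 6 fell as well, beside 1394 of 25196 such probes. At an unadjusted p under 0.05, 10 of the 18 were lower and 3 higher, beside 20.2% of all probes in either direction. The other 12 lay between −1.38 and 0.75, as the plot of transcripts downstream of ERK shows. Without WT replicate 2, 3 fell. Egr1, an immediate-early transcription factor, measured 12.37 and 12.28 in WT, 11.85 and 12.02 in TIA1 KO and 8.55 and 8.74 in TIAR KO MEF. Only the TIAR KO arrays were far from the rest, and Egr1 was at −3.68 ± 0.15 there against WT (adjusted p = 0.000372, limma). Jun, a subunit of AP-1, measured 14.11 and 14.03 in WT, 14.94 and 15.03 in TIA1 KO and 12.56 and 11.29 in TIAR KO MEF, and was thus highest in TIA1 KO and lowest in TIAR KO. Its difference of −2.14 ± 0.41 in TIAR KO MEF passed (adjusted p = 0.0416, limma), but not with the processed signal. The call was also lost without either WT array, although those arrays lay close together and the size of the difference moved little. In TIA1 KO MEF the difference of Jun was 0.92 ± 0.15, which did not pass and was −0.62 with arrays scaled to a common median. Etv4, an ETS factor downstream of FGF and ERK, was lower in both knockouts, at −1.45 ± 0.15 in TIA1 KO (adjusted p = 0.0283, limma) and at −2.02 ± 0.15 in TIAR KO (adjusted p = 0.00205, limma).

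In TIA1 KO MEF, 1 of the 18 rose and 1 fell, beside 2.88% and 1.63% of gene names. The median was −0.35, beside −0.09 over all probes. The gene that rose was Fosl2, another AP-1 subunit, at 11.17 and 11.21 in WT, 12.77 and 12.94 in TIA1 KO and 10.51 and 11.17 in TIAR KO MEF. Its difference of 1.67 ± 0.16 (adjusted p = 0.0227, limma) was 0.18 with arrays scaled to a common median. Between the knockouts 2 of the 18 were called, Fosl2 and Egr1, both lower in TIAR KO MEF, at −2.02 ± 0.27 and −3.29 ± 0.17, beside 2.12% of gene names lower. Both calls were lost with the replicate number as a block, where no probe was called. At an unadjusted p under 0.05, 9 of the 18 passed, beside 22.6% of all probes. Jun, whose arrays did not overlap between the knockouts, was at −3.06 ± 0.46 and did not pass (adjusted p = 0.0550, limma).

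**Figure D3:**
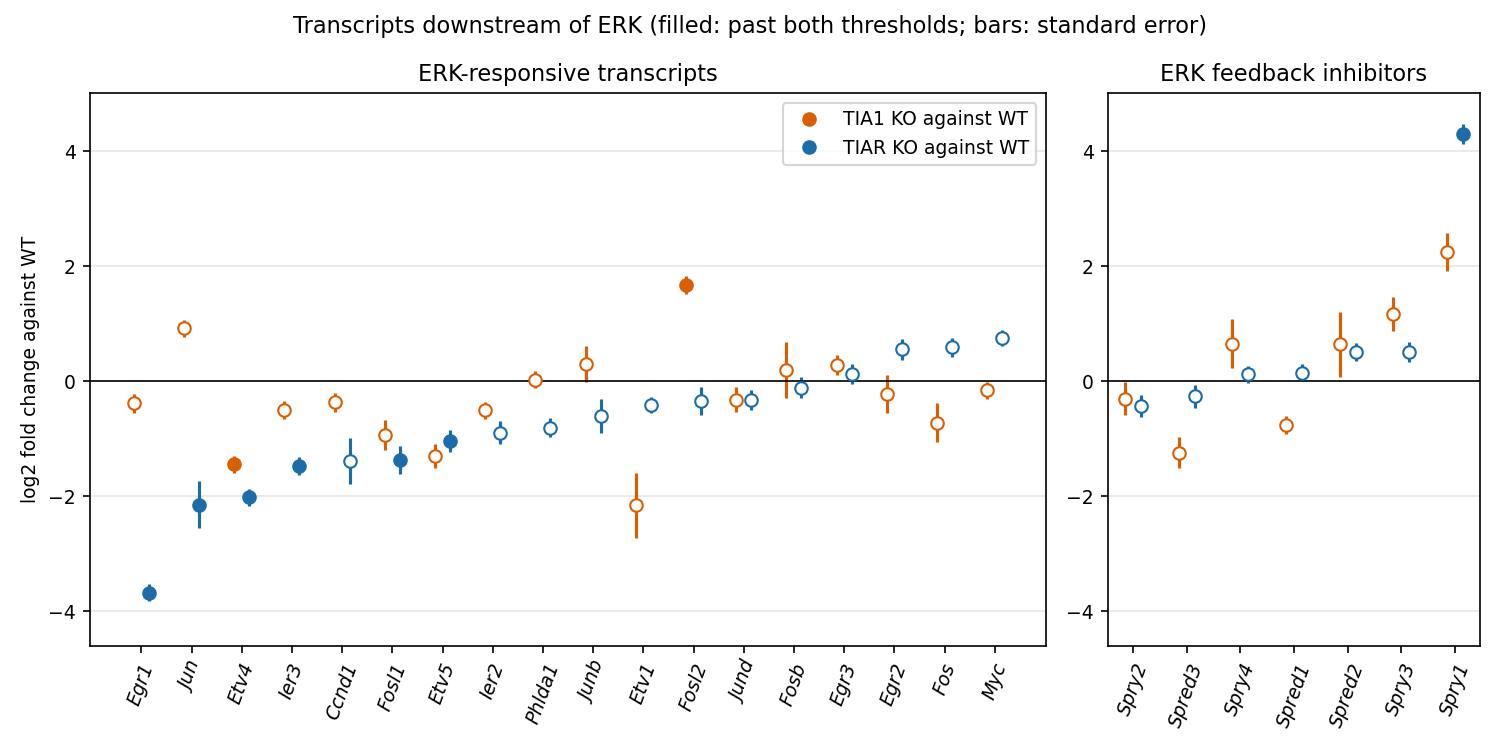
Log2 fold change against WT with its standard error for 18 ERK-responsive transcripts and 7 ERK feedback inhibitors in TIA1 KO and TIAR KO MEF, filled where the adjusted p was under 0.05 and the fold change above 2. Of the ERK-responsive transcripts 6 are filled in TIAR KO MEF, all below 0 and led by Egr1 at −3.68, and Spry1 stands at 4.30 among the inhibitors.

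Of the 7 Sprouty and Spred genes, inhibitors of the path from receptors to ERK that work alongside Dusp6, 1 rose in TIAR KO MEF, where 4.36% of gene names did. Spry1 measured 7.36 and 7.02 in WT, 9.83 and 9.03 in TIA1 KO and 11.51 and 11.47 in TIAR KO MEF. The 3 genotypes were well apart, in the reverse order of Dusp9, with differences of 4.30 ± 0.17 for TIAR KO against WT (adjusted p = 0.000367, limma) and 2.24 ± 0.33 for TIA1 KO against WT, which did not pass (adjusted p = 0.0527, limma).

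Among the kinases, 2 of 14 MAP kinases rose in TIAR KO MEF, namely Mapk7 (ERK5) by 1.41 ± 0.14 and Mapk9 (JNK2) by 1.37 ± 0.25. In TIA1 KO MEF 0 of the 14 were called by limma (3 had an unadjusted p under 0.05, beside 27.8% of all probes). For this list and those that follow, 4.36% of gene names rose and 2.82% fell in TIAR KO MEF, and 2.88% rose and 1.63% fell in TIA1 KO MEF. Of 7 MAP kinase kinases only Map2k6, an activator of p38, was called against WT. It measured 8.32 and 8.79 in WT, 11.01 and 11.37 in TIA1 KO and 11.49 and 11.25 in TIAR KO MEF, higher in both knockouts, by 2.64 ± 0.25 (adjusted p = 0.0226, limma) and 2.82 ± 0.21 (adjusted p = 0.00206, limma). Of 18 MAP kinase kinase kinases, Map3k6 fell in both knockouts, at −1.70 ± 0.16 in TIA1 KO and at −1.10 ± 0.15 in TIAR KO MEF. Its probe was not well above background on TIA1 KO replicate 1. Map3k9 was at background in WT and was measured 4.64-fold higher in TIAR KO MEF. Of 9 scaffolds, Arrb1, which encodes a beta-arrestin, fell in TIAR KO MEF, just past both thresholds (adjusted p = 0.0442, limma).

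Of 16 dual-specificity phosphatases outside the family, 3 rose and 3 fell in TIAR KO MEF, where 7.18% of gene names were called, and 1 rose and 1 fell in TIA1 KO MEF, where 4.51% were. Dusp18 measured 11.25 and 11.02 in WT, 7.63 and 8.64 in TIA1 KO and 9.07 and 9.24 in TIAR KO MEF. Both knockouts were below WT, at −3.00 ± 0.39 in TIA1 KO (adjusted p = 0.0414, limma), with replicate 1 at background, and at −1.98 ± 0.16 in TIAR KO (adjusted p = 0.00278, limma). In TIAR KO MEF, Dusp22 and Dusp3 also fell, at −1.52 ± 0.24 and −1.29 ± 0.21. Dusp23, Dusp28 and Dusp27 rose there, the first by 1.47 ± 0.16 and the second by 1.06 ± 0.15. Dusp27 rose from background, by 2.83-fold with WT replicate 1 raised to the lowest value its array had well above background. Dusp13 rose from background by a measured 5.95-fold in TIA1 KO MEF. Of 8 tyrosine and serine/threonine phosphatases of MAP kinases, 0 were called against WT by limma in either knockout (an unadjusted p under 0.05 was found for 1 of them in TIA1 KO MEF and for 2 in TIAR KO MEF, beside 27.8% and 20.2% of all probes).

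The probes most like Dusp9 over the 6 arrays were found by Pearson correlation among 14187 probes that were well above background on both WT arrays and spanned at least 1 log2 unit. Of these, 38 had r above 0.99, each from 6 points in 3 groups. The 5 genes with the highest r were Hdgf (0.999), Hint2 (0.998), H2-D1 (0.998), Tmem37 (0.998) and Sema3e (0.997). All were highest in WT and lowest in TIAR KO MEF, but their sizes were unlike. Tmem37 was at −5.81 in TIAR KO and −1.66 in TIA1 KO MEF against WT and H2-D1 at −2.66 and −0.72, whereas Hdgf was at −1.06 and Sema3e at −1.09 in TIAR KO MEF, while both of these and Hint2 lay between −0.26 and −0.19 in TIA1 KO MEF. They were chosen for this pattern, so these values are a description.

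**Figure D4:**
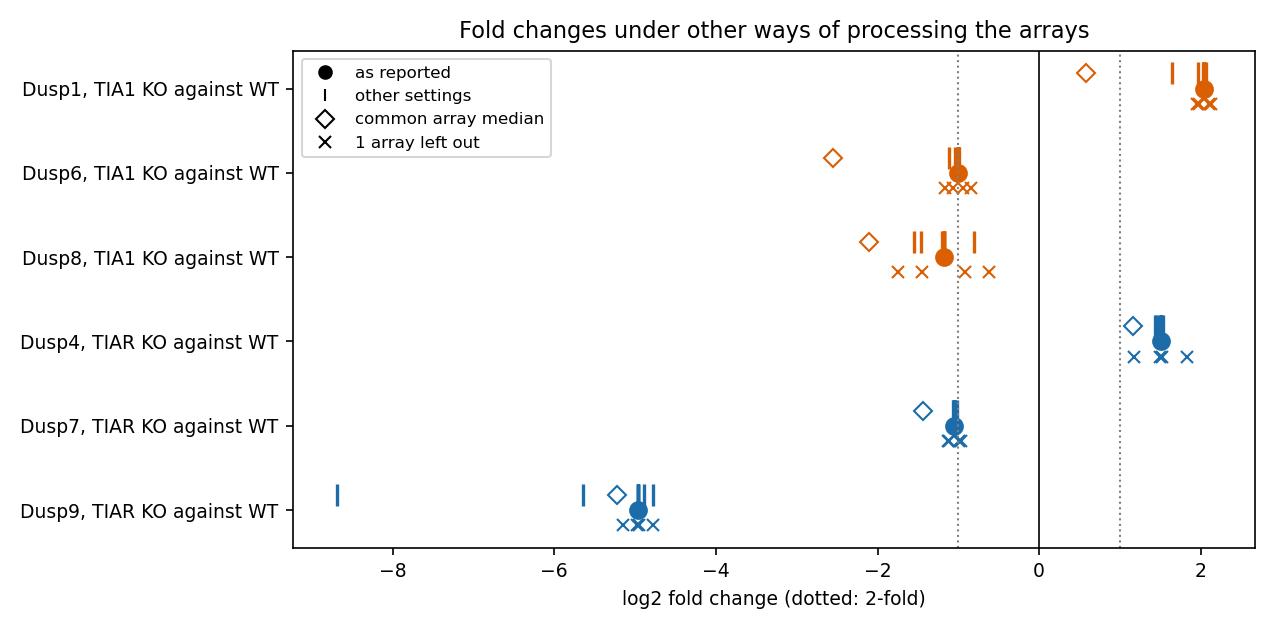
Log2 fold change of 6 comparisons of MAP kinase phosphatases as reported (circles), under other settings (ticks), with arrays scaled to a common median (diamonds) and with 1 array left out (crosses). Dusp9 in TIAR KO MEF stays between −8.69 and −4.77, while Dusp1 in TIA1 KO MEF is at 0.58 and Dusp6 at −2.56 with arrays scaled to a common median.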

How the data were processed

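Transcripts of MEF of 3 genotypes (WT, TIA1 KO, TIAR KO) were measured on 6 one-colour arrays, 2 per genotype. The authors deposited for each array the scanner's spot intensity and local background, which are not normalized between arrays, with quality flags and probe positions on mm9 from Feature Extraction 10.7.3.1. The authors also deposited a log2 value per probe, normalized by normexp, loess and quantiles according to the methods, and used here as an alternative.

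Mean intensities and median local backgrounds of all spots were corrected with limma 3.58.1 (R 4.3.3) by normexp (offset 50). Their log2 values went through 1 pass of loess in which each array was set against the average array, and then through quantile normalization. Controls and spots marked as outliers (between 176 and 291 of 59305 per array) were dropped and spots of a probe averaged. No filter on dim probes was set. A probe was well above background when no fewer than 50% of its spots had that rating. A gene was read from the probe with the highest mean over the arrays. No spot was saturated, and precision is limited by 2 arrays per genotype.

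Each comparison was fitted on its own 4 arrays (lmFit, eBayes, no covariates) with Benjamini-Hochberg adjustment over all 55681 probes, and called at a fold change above 2 with an adjusted p under 0.05. P-values measure the spread between the 2 arrays of a genotype, pooled over the genotypes in the fit. Whether each genotype was 1 clone was not stated in the sources used here. Some folds replaced the values of a group near background by the smallest log2 value that the same array had well above background, unless the probe itself was higher. That smallest value was 5.78 on TIA1 KO replicate 2, where probes without the rating lay above it. Such folds are therefore not strict lower limits. The family and the 8 pathway lists were chosen with earlier results of these data known. Dusp9, and TIAR KO against WT for the whole family, were therefore not tested, and the counts and p-values of the pathway lists are a description. Named genes were the family, the knocked-out genes and Gapdh, of each pathway list up to 3 called rises and 3 called falls per comparison, and 5 probes most like Dusp9. Markers of cell types were also named, as was Fosl1 under an alternative. A gene named for a call, such as Jun, was also given in comparisons where it was not called. The fit was tested on simulated data. Of 28685 probes with a RefSeq accession, 27235 (94.9%) matched a table of GRCm38.p6, used for names, and promoters came from RefSeq on that build. Alternatives changed the offset, the normalization, the signal, the treatment of outliers and dim probes, the model and the arrays included.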

Additional observations from a re-analysis of the deposited data

How the results depend on the processing

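With 2 arrays per genotype, leaving out 1 array left a group without a spread of its own. Counts in those settings cannot show whether a call rested on single arrays. The number of family genes called in TIA1 KO against WT was 1 as reported, 5 with arrays scaled to a common median, 0 with the processed signal at its 75th percentile, 2 among probes well above background, 2 with all 3 genotypes in 1 fit, 2 with the spread depending on intensity, and between 0 and 3 with 1 array left out. In the same order, leaving aside the omitted arrays, 3.54%, 28.4%, 0%, 12.6%, 7.16% and 4.08% of all probes were called. Between TIAR KO and TIA1 KO it was 0 as reported, 4 at a common median, 2 among probes well above background, 1 in 1 fit, 2 with the intensity trend, and between 0 and 1 with 1 array left out, beside 3.35%, 14.9%, 12.2%, 5.72% and 3.86% of all probes in the same order as far as the intensity trend. Of the 97 pathway genes, 6 were called in TIA1 KO against WT as reported, 58 at a common median, 0 with the processed signal, 11 among probes well above background, 12 in 1 fit, 10 with the intensity trend and between 0 and 27 with 1 array left out. In TIAR KO against WT they were 19 as reported, 10 with the processed signal and between 12 and 15 with 1 array left out, settings in which 5.76%, 4.54% and from 4.15% to 5.03% of all probes were called. The number of ERK-responsive transcripts called there, whose alternatives were chosen after seeing the data, was 6 as reported, 3 with the processed signal (Fosl1, Egr1 and Etv4) and between 3 and 5 with 1 array left out, and Egr1 and Etv4 were among those called in each of these settings. The cause of these changes was not tested.

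Dusp9 in TIAR KO against WT was at −4.96 as reported, −5.65 with an offset of 16, −4.77 without loess, −5.22 at a common median, −8.69 with the processed signal, which has no offset, and between −5.14 and −4.78 with 1 array left out. In TIA1 KO against WT, Dusp2 turned to 0.0902 with the processed signal and lay between −0.32 and 0.18 with 1 array left out, Dusp4 turned to −0.96 at a common median, Dusp5 to 0.53 with the processed signal, and Dusp10 to −0.15 at a common median, with −0.0401 to 0.98 with 1 array left out. Between TIAR KO and TIA1 KO, Dusp5 turned to −0.0421 with an offset of 16 and −1.10 with the processed signal, with −0.0632 to 0.0907 with 1 array left out, Dusp7 to 0.56 at a common median, and Dusp8 to −0.14 with the processed signal. With 1 array left out, Dusp8 lay between −0.0232 and 1.11 there and Dusp10 between −0.14 and 0.88. In TIAR KO against WT, which was not tested, Dusp1 went from 0.27 to −0.11 at a common median and to −0.24 without TIAR KO replicate 2, and Dusp16 from 0.14 to −0.30 at a common median, −0.33 with the processed signal and −0.11 without WT replicate 1. None of these differences except that of Dusp9 was past a fold of 2 as reported.

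Same-numbered arrays shared little deviation over all probes, with correlations of 0.0302 between WT and TIAR KO, 0.0780 between WT and TIA1 KO and −0.0729 between the knockouts. These values cannot show whether the samples were prepared in pairs. With the replicate number as a block, 0 family genes, 2 pathway genes and 1.21% of all probes were called in TIA1 KO against WT, and Dusp1 was at 2.04 without a call. Between TIAR KO and TIA1 KO no probe was called with that block.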

Other observations

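Markers of other cell types gave values that entered no comparison of the family. Of 6 epithelial markers, 2 were well above background on both WT arrays, 2 on both TIA1 KO arrays and 4 on both TIAR KO arrays. The log2 of their summed intensity was 12.37 and 12.46 in WT, 13.38 and 13.46 in TIA1 KO and 13.07 and 12.95 in TIAR KO MEF. Of 7 macrophage markers, 4 passed on both WT arrays, 3 on both TIA1 KO arrays and 4 on both TIAR KO arrays, with summed log2 intensities of 13.44 and 13.35, 14.38 and 14.19, and 13.28 and 13.27. Of 5 endothelial markers, 2, 1 and 2 were rated well above background in WT, TIA1 KO and TIAR KO on both arrays, with sums between 11.51 and 11.92.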
